A study of Mus musculus with 14 samples.

Results

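Later embryonic dorsal skin, from days E12.5 and E14.5, was set against earlier embryonic dorsal skin, from days E9.5 and E10.5, within a second sequencing project of the study. The members are the 4 libraries of that project whose titles give those days, 2 later and 2 earlier, out of 14 libraries in the series. The other libraries are 4 of skin from a first project at the same days and 6 of the aorta-gonad-mesonephros region. All skin libraries came from wild-type C57BL/6 mouse embryos, with no treatment named, and each day is 1 library in each project. The later group therefore holds 1 library of E12.5 and 1 of E14.5, and the earlier group 1 of E9.5 and 1 of E10.5, so that the spread within a group includes the difference between its days. The labels do not say whether a library is 1 embryo or a pool. Nothing in them ties a library to its own embryo either, so the p-values here reflect how far these samples spread, which may be technical.

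Gene expression was measured by RNA-seq of polyA-selected RNA, as read counts per gene. The later libraries held 6770338 counts at E12.5 and 15440012 at E14.5, and the earlier libraries 8820803 at E9.5 and 14044081 at E10.5. Values are given as CPM, the count of a gene per 1000000 counts of the library over all genes, with no division by gene length. A gene with 3 counts, the floor used here, would be at 0.443 CPM (E12.5) and 0.194 CPM (E14.5) in the later group, and at 0.34 CPM (E9.5) and 0.214 CPM (E10.5) in the earlier group, a floor that covers counting error only. Changes are given as log2 of later over earlier, from an edgeR quasi-likelihood fit to these 4 libraries alone. The standard error (SE) beside them is approximate, the size of the log2 change divided by the square root of the test's F value. A gene was called when its Benjamini-Hochberg adjusted p over 15242 tested genes was under 0.05. The groups of a gene are described as 1.5 times apart when the nearest libraries of the 2 groups differed by at least that ratio in CPM.

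Immediate early genes are transcribed within minutes of a stimulus, without new protein being made first. Growth factors, stress, cytokines and the handling of tissue all induce them, and their products are transcription factors of the AP-1, EGR and NR4A families together with feedback inhibitors that end the signal. Embryonic dorsal skin holds a dermis of fibroblasts beneath an epidermis that begins as a simple sheet of cells and later stratifies, with vessels, nerves, and macrophages that seed the tissue from the yolk sac and fetal liver.

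The 2 genes called between the groups, Fosb and Fos, are both immediate early genes. So are most of the other genes named below as higher, which were picked by unadjusted p and did not pass the test. The promoters of Fosb and Fos are shown here with those of Dusp1 and Zfp36, a pair of feedback inhibitors of the same list, since all 4 genes were higher in both later libraries. Sequences are from the RefSeq promoter table, build GRCm38.p6, and run from 250 bases before to 50 after the gene's start, on the gene's strand. The Fos window is chr12:85473640-85473939 on the plus strand, that of Fosb is chr7:19309996-19310295 on the minus strand, that of Dusp1 is chr17:26508423-26508722 on the minus strand, and that of Zfp36 is chr7:28379179-28379478 on the minus strand. Capitals mark matches, on either strand, to TGACGT, the core of the cAMP response element that CREB and ATF factors bind, and to the serum response element (CArG box), which serum response factor binds.
Fos: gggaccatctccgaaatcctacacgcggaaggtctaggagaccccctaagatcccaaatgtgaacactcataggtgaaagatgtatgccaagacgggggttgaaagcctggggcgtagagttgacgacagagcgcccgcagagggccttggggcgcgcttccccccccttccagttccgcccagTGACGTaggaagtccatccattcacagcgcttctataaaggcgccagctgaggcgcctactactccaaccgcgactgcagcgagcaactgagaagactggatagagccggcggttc
Fosb: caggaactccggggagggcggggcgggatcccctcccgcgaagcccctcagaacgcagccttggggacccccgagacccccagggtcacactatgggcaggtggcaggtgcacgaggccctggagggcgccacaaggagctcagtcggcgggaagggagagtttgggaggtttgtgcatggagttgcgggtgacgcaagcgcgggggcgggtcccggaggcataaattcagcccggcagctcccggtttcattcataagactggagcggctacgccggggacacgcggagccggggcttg
Dusp1: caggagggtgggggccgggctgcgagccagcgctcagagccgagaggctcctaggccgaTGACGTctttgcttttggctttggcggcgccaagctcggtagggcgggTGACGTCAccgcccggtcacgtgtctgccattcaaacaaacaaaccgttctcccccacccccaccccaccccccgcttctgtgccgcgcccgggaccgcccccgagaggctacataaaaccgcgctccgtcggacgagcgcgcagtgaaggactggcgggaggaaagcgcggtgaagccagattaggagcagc
Zfp36: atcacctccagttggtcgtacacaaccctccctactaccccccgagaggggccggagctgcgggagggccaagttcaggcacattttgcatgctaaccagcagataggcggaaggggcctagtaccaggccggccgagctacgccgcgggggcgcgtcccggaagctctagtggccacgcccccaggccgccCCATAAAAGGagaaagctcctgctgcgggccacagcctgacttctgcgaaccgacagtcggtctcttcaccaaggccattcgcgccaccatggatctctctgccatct
The Fos window held 1 match to TGACGT, starting at position -66 from the gene's start. The Dusp1 window held 3 matches to TGACGT, and 2 of them overlap, since an extension of this motif reads the same on both strands. The Zfp36 window held 1 serum response element at position -58 and no TGACGT, and the Fosb window held neither. As counted here, Zfp36 spans chr7:28376784-28380253 on the minus strand, so its window and the start used lie inside the counted gene. Of the 15 immediate early genes whose groups were at least 1.5 times apart, 12 had an entry in the table. TGACGT was found in 6 of these (Atf3, Btg2, Dusp1, Egr2, Fos and Nr4a3) and the serum response element in 2 (Egr2 and Zfp36), while the AP-1 motif TGANTCA was in 0. Counted by gene in the same way over the 27025 genes of the table, some of which, like Egr2, have several promoters, 8.37% held TGACGT, 1.81% the serum response element and 8.97% TGANTCA. By promoter, over 32851 of them, the shares were 7.51%, 1.63% and 7.81%. A match describes letters in this window only.

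The RNA in these libraries was checked against marker genes of skin. Red cell and endothelial markers summed to far less than in first-project skin, and the keratins Krt5 and Krt14 were low. Skin is the name that the labels give, and whether these libraries hold whole skin was not tested. Fibroblast markers were abundant. Col1a1, a chain of type I collagen, had 1615 CPM at E12.5 and 2419 CPM at E14.5 in later skin, against 1610 CPM at E9.5 and 2647 CPM at E10.5 in earlier skin. Vim, the intermediate filament of mesenchymal cells, had 3026 and 3673 CPM in later skin, against 3734 and 4495 CPM in earlier skin. Among markers of the epidermis, the basal keratins Krt5 and Krt14 were at 1.62 CPM or less in every library. The 10 basal keratinocyte markers summed to 669 and 813 CPM in later skin, against 658 and 719 CPM in earlier skin, of which Dst and Itga6, genes that other cells express too, gave the most. In first-project skin the sum of these markers was 567 and 5138 CPM in later skin, against 339 and 330 CPM in earlier skin. Of the 14 suprabasal and cornified keratinocyte markers, 5 passed the filter on low counts, among them Klf4, which fibroblasts also express, and 4 had no count in any of the 4 libraries (Krtdap, Dsc1, Flg and Calm4), and the basal keratin Krt14 had no count in either later library, against 0.113 and 0.142 CPM in earlier skin, which is under the floor. The summed level of 12 globin and red cell genes was 0.295 and 0.518 CPM in later skin, against 0.567 and 0.356 CPM in earlier skin. In first-project skin that sum was 2426 and 8750 CPM in later skin, against 2754 and 5013 CPM in earlier skin. The 12 endothelial markers summed to 49.8 and 26.0 CPM in later skin, against 36.6 and 31.2 CPM in earlier skin. Their first-project sums were 657 and 798 CPM in later skin, against 541 and 454 CPM in earlier skin. Krt5, the partner of Krt14, had 1.62 and 0.324 CPM in later skin, against 0.453 and 1.28 CPM in earlier skin. The marker of cycling cells Mki67 had 3.54 and 19 CPM in later skin, against 7.26 and 15.9 CPM in earlier skin.

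The 10 genes with the highest CPM held 9.43% (E12.5) and 9.37% (E14.5) of counts in later skin, against 8.93% (E9.5) and 8.06% (E10.5) in earlier skin. They were Spp1 (osteopontin), mt-Co1, Tnc, Fn1, Ctsl, Eef1a1, mt-Cytb, Col6a3, Mmp3 and Bgn. Spp1 had 34966 and 26887 CPM in later skin, against 30010 and 22229 CPM in earlier skin, and its groups overlapped. In first-project skin Spp1 had 4.58 and 6.45 CPM in later skin, against 3.26 and 1.19 CPM in earlier skin. None of the 10 was called. Mmp3, the secreted protease stromelysin-1, was at 5024 and 5471 CPM in later skin, against 3796 and 3013 CPM in earlier skin. First-project Mmp3 had 0 and 0.0448 CPM in later skin, against 0 and 0.044 CPM in earlier skin.

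Immediate early genes made up the clearest difference between the groups. Fosb, which encodes an AP-1 subunit (ENSMUSG00000003545, chr7:19302696-19310051 in the coordinates of the count table), had 220.2 CPM at E12.5 and 258 CPM at E14.5 in later skin, against 2.95 CPM at E9.5 and 2.71 CPM at E10.5 in earlier skin. Both later libraries stood far above both earlier ones, and libraries of a group lay close to each other. Fosb rose by 6.44 ± 0.21 on the log2 scale (SE; edgeR adjusted p = 0.0151). Fos, the founding member of the same family (ENSMUSG00000021250, chr12:85473890-85477273), had 201 and 202 CPM in later skin, against 11.6 and 14.3 CPM in earlier skin. The groups did not overlap, and Fos rose by 4.0 ± 0.18 on the log2 scale (SE; edgeR adjusted p = 0.0402). These 2 were the only genes called, 0.0131% of 15242 tested, and 0 were called lower. At an unadjusted edgeR p under 0.05, 169 genes were higher (1.11%) and 160 lower (1.05%), while DESeq2 called 27 higher (0.188% of the 14364 genes it adjusted) and 1 lower (0.00696%), and limma-voom called 2 higher and 0 lower. Leaving out either earlier library ended both edgeR calls, with an adjusted p for Fosb of 0.316 without E9.5 and 0.235 without E10.5, and for Fos of 0.797 and 0.49, while both remained called without either later library. Neither was called with embryonic day as a number or with the spread of all 8 skin libraries (Fosb adjusted p = 0.322), and Fos was not against a log2 change of 1 (adjusted p = 0.0567).

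**Figure D1:**
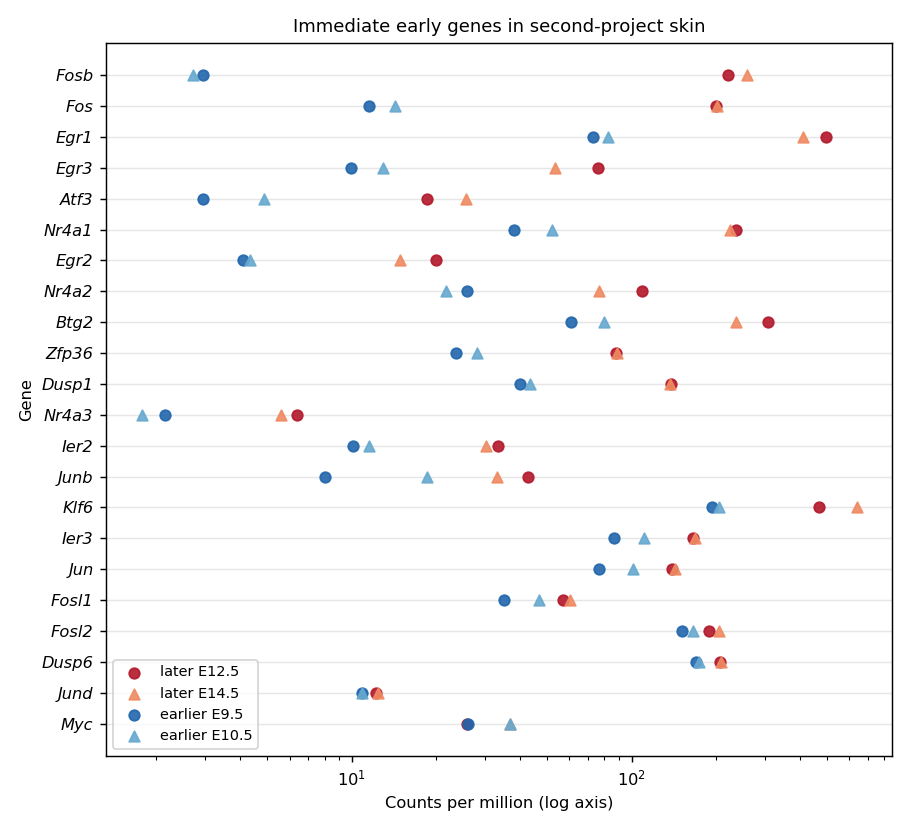
Level of each of 22 immediate early genes in the 4 second-project skin libraries, in CPM on a log axis, with genes ordered by log2 change. Later libraries are red (E12.5 circles, E14.5 triangles) and earlier libraries blue (E9.5 circles, E10.5 triangles); for 21 of the 22 genes both red points lie right of both blue points, with Myc the exception.

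Of the 22 immediate early genes listed, all 22 were tested and 2 were called. In 15 of the 22 the groups were at least 1.5 times apart with later skin higher, against 0.925% of all tested genes, and in 0 with later skin lower. In 21 of the 22 both later libraries exceeded both earlier ones, against 8.88% of all tested genes. This list and those below were chosen with earlier results of these data known, so such shares are a description and not a test. The median log2 change of the list was 1.70, beside -0.01 for all tested genes. The summed level of the list was 3255 CPM at E12.5 and 3269 CPM at E14.5 in later skin, against 1063 CPM at E9.5 and 1229 CPM at E10.5 in earlier skin. The sums of a group lay closer to each other than to those of the other group. DESeq2 called 13 of the list higher.

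Among the transcription factors of the list, the zinc finger gene Egr1 came next after the FOS genes in size of change, without passing the test. Egr1 had 496 and 411 CPM in later skin, against 72.9 and 82.6 CPM in earlier skin, a log2 change of 2.58 ± 0.19 (edgeR adjusted p = 0.278). Egr3 had 75.9 and 53.4 CPM in later skin, against 9.98 and 13 CPM in earlier skin, a log2 change of 2.53 ± 0.28 (edgeR adjusted p = 0.517). In both genes the lowest later library was several times the highest earlier one. Egr2 had 20.1 and 14.9 CPM in later skin, against 4.08 and 4.34 CPM in earlier skin. The orphan nuclear receptor Nr4a1 had 236 and 225 CPM in later skin, against 38.0 and 51.9 CPM in earlier skin (log2 change 2.40 ± 0.20, edgeR adjusted p = 0.297). Its relatives Nr4a2 and Nr4a3 had log2 changes of 2.0 ± 0.26 and 1.63 ± 0.33, with the groups apart as well, though Nr4a3 lay between 1.78 and 6.35 CPM in all 4 libraries. Atf3, a stress-induced repressor, had 18.6 and 25.6 CPM in later skin, against 2.95 and 4.84 CPM in earlier skin. Klf6 had 466 and 637 CPM in later skin, against 194 and 205 CPM in earlier skin.

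The JUN genes, whose products pair with FOS proteins in AP-1, showed smaller differences. Junb had 42.7 and 33.1 CPM in later skin, against 8.05 and 18.5 CPM in earlier skin (log2 change 1.55 ± 0.43). Jun had 139.7 and 143 CPM in later skin, against 76.8 and 101 CPM in earlier skin (0.71 ± 0.18). Jund had 12.3 and 12.4 CPM in later skin, against 10.9 and 10.9 CPM in earlier skin (0.22 ± 0.21). The groups of all 3 genes were separate, by a wide margin for Junb alone. The FOS relatives Fosl1 and Fosl2, which AP-1 induces later than Fos in cultured fibroblasts, had log2 changes of 0.55 ± 0.19 and 0.35 ± 0.15. Myc, another early target of growth factors, had 25.8 and 36.9 CPM in later skin, against 26.0 and 36.7 CPM in earlier skin, and was the 1 list member whose groups overlapped.

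The feedback inhibitors of the list were higher in both later libraries too, and none passed the edgeR test. Dusp1, a phosphatase that switches off MAP kinases, had 138 and 137 CPM in later skin, against 39.9 and 43.3 CPM in earlier skin (log2 change 1.76 ± 0.15, edgeR adjusted p = 0.297). Zfp36 (tristetraprolin), which marks AU-rich messenger RNAs for decay, had 88.0 and 88.6 CPM in later skin, against 23.6 and 28.1 CPM in earlier skin (1.81 ± 0.17, edgeR adjusted p = 0.35). The gene overlaps Gm44710 on the other strand, which had 24 counts in the 4 libraries together. Btg2, an antiproliferative gene, had 308 and 236 CPM in later skin, against 60.5 and 79.4 CPM in earlier skin. Ier2 had 33.4 and 30.2 CPM in later skin, against 10.1 and 11.54 CPM in earlier skin. The ERK phosphatase Dusp6 differed least of this group, at 208 and 209 CPM in later skin, against 169.9 and 174 CPM in earlier skin.

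Outside the list, 3 further genes reached the places that the naming rule filled by unadjusted p, and they did not pass the test either. Trib1, a pseudokinase that targets C/EBP factors for degradation, had 77.5 and 90.5 CPM in later skin, against 26.3 and 28.0 CPM in earlier skin (log2 change 1.67 ± 0.16, edgeR adjusted p = 0.377). Rgs2, an inhibitor of G protein signalling, had 146 and 129 CPM in later skin, against 38.0 and 30.9 CPM in earlier skin (2.04 ± 0.20, edgeR adjusted p = 0.377). Sgk1, a kinase induced by serum and glucocorticoids, had 206 and 258 CPM in later skin, against 84.0 and 90.0 CPM in earlier skin (1.45 ± 0.17, edgeR adjusted p = 0.634). In all 3 the groups were separate. Among 9 tested genes of the glucocorticoid response, Sgk1, Dusp1 and Per1 were the 3 whose groups were 1.5 times apart, against 0.925% of all tested genes, and with TMM-scaled CPM Per1 no longer was. Fkbp5, a direct target of the glucocorticoid receptor, had 20.2 and 23.4 CPM in later skin, against 23.8 and 23.1 CPM in earlier skin. Of the 14 heat shock chaperones tested, 0 had groups 1.5 times apart and the median log2 change was 0.05.

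**Figure D2:**
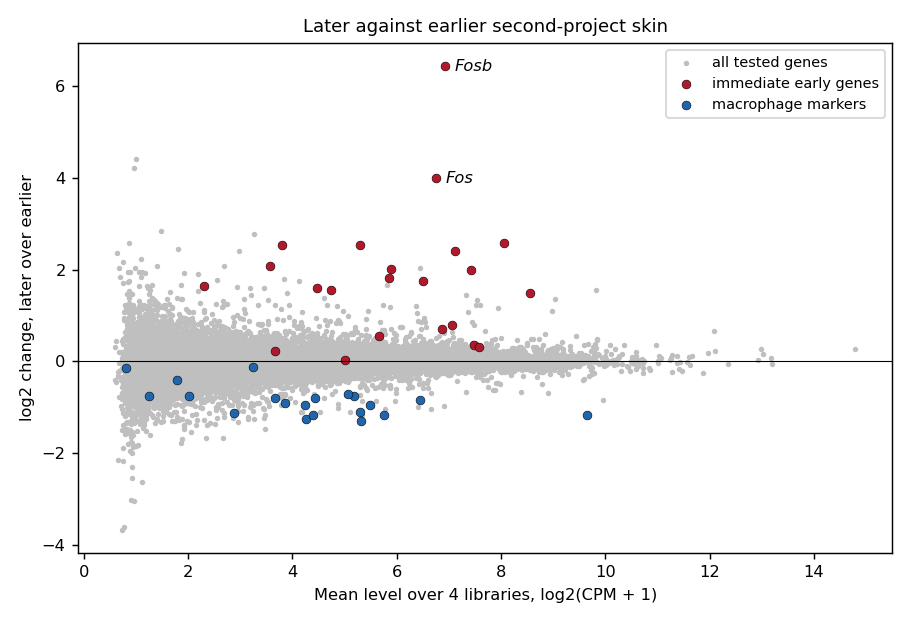
log2 change of later over earlier second-project skin for 15242 tested genes, against the mean level over the 4 libraries as log2(CPM + 1). Immediate early genes (red) reach up to 6.44 and macrophage markers (blue) down to -1.29, while the median of all tested genes is -0.01.

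Genes of NF-kB feedback and of inflammatory enzymes were also higher in later skin, in part of the list. NF-kB is the factor through which TNF, interleukin-1 and Toll-like receptors switch on inflammatory genes, and it induces its own inhibitors. Of 18 genes, all tested, 0 were called, 8 had groups at least 1.5 times apart with later skin higher (against 0.925% of all tested genes), and 0 the other way, with a median log2 change of 0.43. Ptgs2, the inducible cyclooxygenase of prostaglandin synthesis and itself an early response gene, had 1458 and 1220 CPM in later skin, against 513 and 418 CPM in earlier skin (log2 change 1.56 ± 0.22, edgeR adjusted p = 0.666). Tnfaip3 (A20), a deubiquitinase that ends NF-kB signalling, had 117 and 110.4 CPM in later skin, against 51.4 and 50.1 CPM in earlier skin (1.2 ± 0.15, edgeR adjusted p = 0.637). Each group of either gene lay in a narrow range, and the ranges were apart. The others were Nfkbiz, Nos2, Saa3, Lcn2, Steap4 and C3, at log2 changes between 0.86 and 2.44, of which Nos2 was below 5 CPM in every library. The core factors and the adhesion genes did not share this: Relb had 22.5 and 25.6 CPM in later skin, against 22.7 and 25.7 CPM in earlier skin, and Nfkb1, Nfkb2, Icam1 and Vcam1 overlapped between the groups.

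Chemokines and cytokines, which recruit and instruct leukocytes, differed in a few members. Of 25 tested, 0 were called, 3 had groups 1.5 times apart with later skin higher (against 0.925% of all tested genes) and 1 with later skin lower (against 1.37%), and the median log2 change was 0.19. In 6 both later libraries were above both earlier ones (against 8.88%) and in 4 below them (against 15.3%). The number apart was 8 higher without E12.5, and 3 and 4 lower without E9.5 and without E14.5. With a library left out groups lie apart more easily, and no share of all tested genes was taken there. Cxcl1, a neutrophil chemokine and a known NF-kB target, had 237 and 274 CPM in later skin, against 118 and 103 CPM in earlier skin. Lif, a cytokine of the interleukin-6 family, had 249 and 288 CPM in later skin, against 107 and 127 CPM in earlier skin. The third was Cxcl2, and the 1 lower was Cxcl14, with 5.32 and 5.83 CPM in later skin, against 9.3 and 12.2 CPM in earlier skin. The monocyte chemokine Ccl2 had 818 and 1155 CPM in later skin, against 789.7 and 865 CPM in earlier skin, and Il6 had 54.8 and 81.2 CPM in later skin, against 69.7 and 64.4 CPM in earlier skin. Neither was called, and the log2 changes were 0.29 ± 0.22 for Ccl2 and 0.05 ± 0.23 for Il6. Among 20 tested matrix metalloproteinases and inhibitors, 1 had groups apart with later skin higher, against 0.925% of all tested genes. It was Mmp9, a type IV collagenase, at 74.3 and 85.4 CPM in later skin, against 36.8 and 34.6 CPM in earlier skin (log2 change 1.2 ± 0.16, edgeR adjusted p = 0.637).

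Macrophage markers were lower in both later libraries in most of their list, with none called. Of the 12 genes that the naming rule gave to this direction, by unadjusted p, 4 are in that list, namely Adgre1, Lyz2, Fcgr3 and Ms4a7. Adgre1 (F4/80), a surface receptor of tissue macrophages, had 28.7 CPM at E12.5 and 35.8 CPM at E14.5 in later skin, against 73.0 CPM at E9.5 and 75.7 CPM at E10.5 in earlier skin. The log2 change of Adgre1 was -1.17 ± 0.18 (edgeR adjusted p = 0.774). Lyz2, lysozyme of phagocytes, had 435 and 533 CPM in later skin, against 1112 and 1111 CPM in earlier skin, with the earlier libraries almost equal (log2 change -1.17 ± 0.18, edgeR adjusted p = 0.81). Reads of Lyz2 can be shared with its near copy Lyz1. In these bulk samples fewer cells of a type and less RNA per cell cannot be told apart.

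The other 10 genes named on this side were Msr1, Mpeg1, Fcrls, Ms4a7, Lilr4b, Fcgr3, Tlr13, Hpgds, Clec4d and Cd84, with log2 changes between -1.48 and -0.96. Msr1, a scavenger receptor, had 50.2 and 60.6 CPM in later skin, against 117 and 109 CPM in earlier skin. Mpeg1, a pore-forming protein of phagosomes, had 56.0 and 73.7 CPM in later skin, against 132 and 141 CPM in earlier skin. Fcrls, an Fc receptor-like gene, had the furthest value of these, at 5.02 and 5.38 CPM in later skin, against 12.47 and 17.3 CPM in earlier skin. In all 12 genes both later libraries lay below both earlier ones, which the naming rule asked for. Hpgds overlaps Gm17147 on the other strand, which had 4 counts in the 4 libraries together, and reads of Lilr4b can be shared with Lilrb4a.

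Of 22 macrophage markers listed, 20 were tested, 0 were called, and 8 had groups at least 1.5 times apart with later skin lower, against 1.37% of all tested genes. In 17 of the 20 both later libraries lay below both earlier ones, against 15.3% of all tested genes, and the median log2 change was -0.87. The sum over the list was 689 CPM at E12.5 and 886 CPM at E14.5 in later skin, against 1679 CPM at E9.5 and 1749 CPM at E10.5 in earlier skin, of which Lyz2 gave the most. The complement chains C1qa, C1qb and C1qc, made together by tissue macrophages, had log2 changes of -1.29 ± 0.31, -1.24 ± 0.31 and -1.17 ± 0.35. C1qa had 16.4 and 27.5 CPM in later skin, against 46.8 and 64.1 CPM in earlier skin. Csf1r, the receptor tyrosine kinase for the macrophage growth factor CSF-1, had 12.9 and 16.6 CPM in later skin, against 22 and 30.5 CPM in earlier skin. Its groups were separate but not 1.5 times apart. The number with groups apart was 14 without E9.5, 10 without E10.5, 8 without E12.5, 18 without E14.5 and 7 with TMM-scaled CPM. Leaving out a library can only keep or raise this number, and the share of all tested genes was not taken under these settings.

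**Figure D3:**
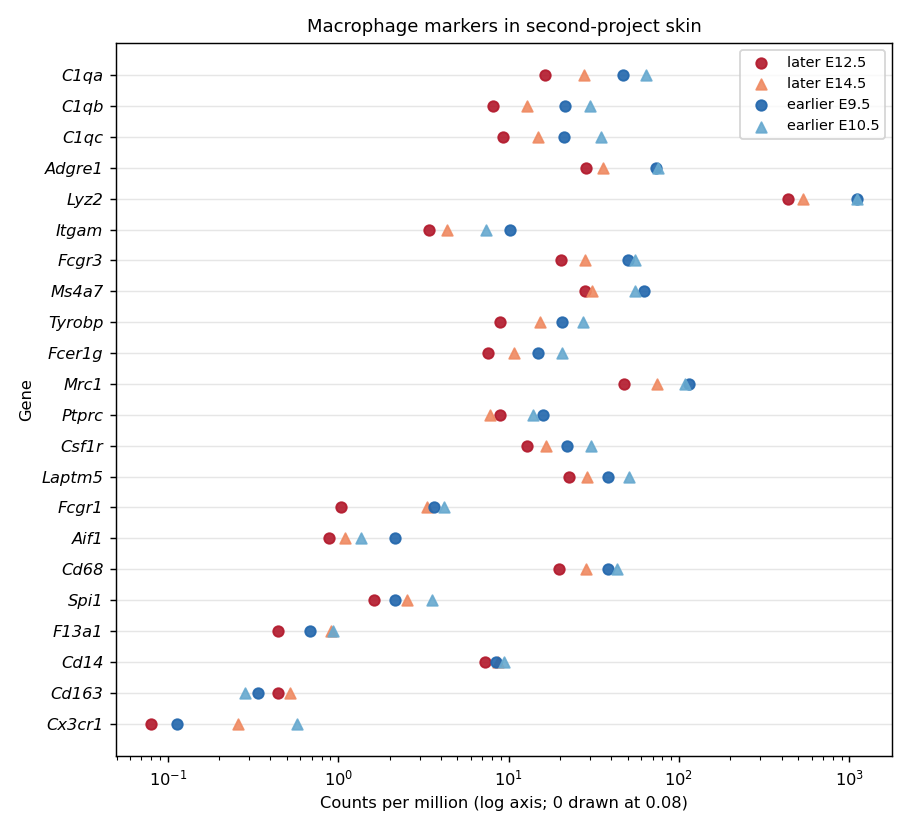
Level of each of 22 macrophage markers in the 4 second-project skin libraries, in CPM on a log axis with 0 drawn at 0.08, genes ordered by log2 change and the untested Cd163 and Cx3cr1 at the bottom. In 17 of the 20 tested genes both later libraries (red) lie left of both earlier libraries (blue), with Lyz2 at 435 and 533 CPM in later skin, against 1112 and 1111 CPM in earlier skin.

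A few markers did not follow. Cd14, a co-receptor for bacterial lipopolysaccharide, had 7.24 and 8.61 CPM in later skin, against 8.39 and 9.4 CPM in earlier skin, with overlapping groups. Spi1 (PU.1), the transcription factor of the myeloid lineage, had 1.62 and 2.53 CPM in later skin, against 2.15 and 3.56 CPM in earlier skin. F13a1 overlapped too, at under 1 CPM in all 4 libraries. Cx3cr1, the fractalkine receptor, had 0 and 4 counts in later skin, against 1 and 8 counts in earlier skin, and Cd163 had 3 and 8 counts in later skin, against 3 and 4 counts in earlier skin. Csf1, the ligand of Csf1r, had 508 and 706 CPM in later skin, against 519 and 639 CPM in earlier skin, with overlapping groups.

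The remaining lists showed few members with groups apart. Of 16 fibroblast markers tested, 0 had groups 1.5 times apart and the median log2 change was 0.04. Of 30 collagens and collagen-processing genes, 0 did, with a median of 0.10. Dcn (decorin) had 901 and 1212 CPM in later skin, against 767 and 774 CPM in earlier skin (log2 change 0.49 ± 0.20). For 14 smooth muscle and myofibroblast markers, 0 had groups 1.5 times apart, although in 9 both later libraries lay below both earlier ones, against 15.3% of all tested genes, and the median was -0.51. The number apart and lower was 5 without E9.5, 2 without E12.5 and 4 without E14.5, settings in which groups lie apart more easily and no share of all tested genes was taken. Acta2, the actin of smooth muscle and myofibroblasts, was not among the 9, at 128 and 286 CPM in later skin, against 204 and 389.7 CPM in earlier skin. Nuclear-encoded respiratory chain subunits had 0 of 22 with groups apart and a median of -0.13, while in 11 both later libraries lay below both earlier ones, against 15.3% of all tested genes.

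**Figure D4:**
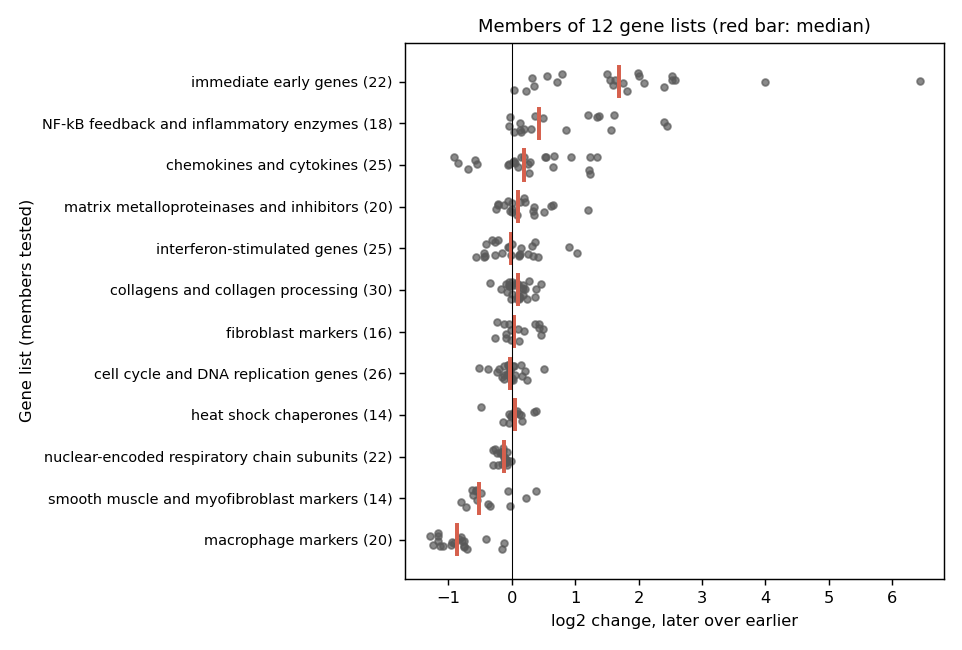
log2 change of later over earlier second-project skin for the tested members of 12 gene lists, 1 point per gene, with a red bar at the list's median. The median is 1.70 for immediate early genes and -0.87 for macrophage markers, and lies between -0.51 and 0.43 for the other 10 lists.

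The 26 cell cycle and DNA replication genes summed to 1214 and 1316 CPM in later skin, against 1219 and 1427 CPM in earlier skin. Of these genes, 0 were called and 0 had groups 1.5 times apart, with a median log2 change of -0.03. Lin28a, an RNA-binding protein known to decline as embryos develop, had 48.6 and 7.06 CPM in later skin, against 23.5 and 14.45 CPM in earlier skin, so that the 2 later libraries were the highest and the lowest. Its CPM fell as the total counts of the libraries rose. Of 10 tested genes of pluripotency and early timing, 6 ran that way with at least 2-fold between the ends, against 9.79% of all tested genes. In first-project skin Lin28a had 0.667 and 0.94 CPM in later skin, against 366 and 84.6 CPM in earlier skin. Among 30 tested Hox genes, which give cells their position along the body axis, Hoxa2 and Hoxd12 had groups apart with later skin lower and Hoxb2 with later skin higher, each at 2.38 CPM or less; the shares of all tested genes are 1.37% and 0.925%.

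Libraries of a group differed more than libraries of like total count. Over 11080 genes with a mean of 5 CPM or more, the percentage that differed over 2-fold in log2(CPM + 1) was 9.92% between E14.5 and E12.5, both later, and 2.69% between E10.5 and E9.5, both earlier. Across the groups it was 1.43% between E12.5 and E9.5, the smallest totals, and 1.72% between E14.5 and E10.5, the largest totals, but 8.55% between E12.5 and E10.5 and 7.66% between E14.5 and E9.5. Total counts ran E12.5, E9.5, E10.5, E14.5 from low to high. Of all tested genes, 287 (1.88%) had CPM that increased in that order with at least 2-fold between the ends, and 1492 (9.79%) ran the opposite way. Names of predicted genes or pseudogenes made up 68.6% of these 1492, against 17.9% of all tested genes and 14.6% of the 287.

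Interferon-stimulated genes, antiviral effectors switched on by type I interferon, followed the order of total counts more than any other list of 10 or more tested genes. Of 25, 16 did so with at least 2-fold between the ends, against 1.88% of all tested genes. In the opposite way ran 0, against 9.79% of all tested genes. Ifit1 had 23.6 and 235 CPM in later skin, against 80.8 and 129 CPM in earlier skin. Isg15 had 12.9 and 130.4 CPM in later skin, against 41.5 and 107 CPM in earlier skin. In both genes the later libraries were the lowest and the highest of the 4, and 0 of the 25 had groups 1.5 times apart (median log2 change -0.01). Without E14.5, 22 were apart with later skin lower, and without E12.5, 9 were apart with later skin higher. Each of these leaves a single later library, and no share of all tested genes was taken there. The list's sum was 376 and 1854 CPM in later skin, against 902 and 1391 CPM in earlier skin. The interferon regulatory factor Irf1, which also answers interferon gamma and NF-kB, had 32.9 and 35.6 CPM in later skin, against 37.4 and 32.7 CPM in earlier skin.

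**Figure D5:**
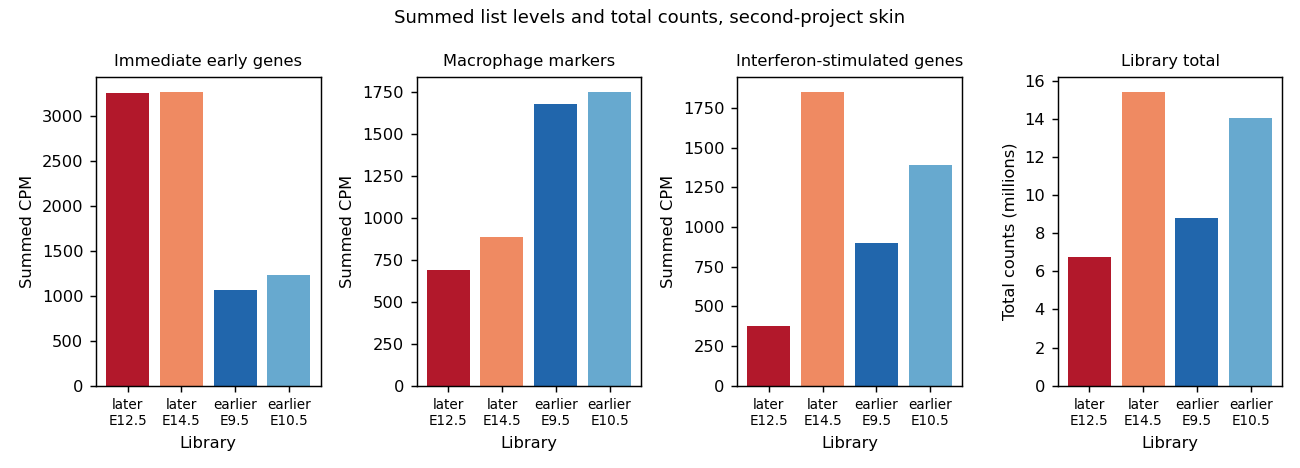
Summed CPM of 3 gene lists and total counts for the later (red) and earlier (blue) second-project skin libraries, 1 bar per library. Immediate early genes sum to 3255 and 3269 CPM in later skin, against 1063 and 1229 CPM in earlier skin, while interferon-stimulated genes (376 and 1854 CPM in later skin, against 902 and 1391 CPM in earlier skin) run in the order of the total counts.

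With log2 total counts as a second term beside the group, which leaves 1 residual degree of freedom, the common coefficient of variation was 7.72% in place of 29.3%. That fit, chosen after seeing the data, called 322 genes higher (2.11%) and 460 lower (3.02%). Of the immediate early genes it called 20 of 22 higher, of the NF-kB list 10 of 18 higher, of the chemokines and cytokines 8 of 25 higher and 4 lower, of the smooth muscle markers 6 of 14 lower, and of the macrophage markers 15 of 20 lower. The log2 change of Fosb there was 6.47 ± 0.16 and that of Lyz2 -1.15 ± 0.10. Why the genes move with total counts was not tested.

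The second-project changes were set against those of first-project skin over the same days, in an edgeR fit of the 8 skin libraries and 18968 genes with 4 residual degrees of freedom. Levels differed widely between the projects. Macrophage markers summed to 1679 and 1749 CPM in earlier second-project skin, against 13.7 and 53.6 CPM in earlier first-project skin. The labels do not say what sets the projects apart, and whether they hold like material was not tested. Of the genes called higher between later and earlier first-project skin, 1543 in number (8.13%), 1305 were tested in the second project, and their median log2 change there was 0.005. Of these, 21 (1.61%) had second-project groups apart with later skin higher and 41 (3.14%) with later skin lower, against 0.925% and 1.37% of all tested genes. Of the 640 called lower in the first project (3.37%), 538 were tested, with a median of -0.009 in the second, and 3 (0.558%) had second-project groups apart with later skin higher and 4 (0.743%) with later skin lower. The test of the difference between the changes called 144 genes, 16 higher in the second project (0.0844%) and 128 lower (0.675%). Without any 1 of the second-project libraries that number was between 1 and 4. It was 2 without first-project E9.5, 34 without first-project E10.5, 1532 without first-project E12.5 and 363 without first-project E14.5.

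Fos and Fosb were not among the 144, with an adjusted p for the difference of 0.922 and 0.239. First-project Fos had 4.0 and 70.1 CPM in later skin, against 1.10 and 2.11 CPM in earlier skin, and first-project Fosb had 1.12 and 4.21 CPM in later skin, against 0.201 and 0.22 CPM in earlier skin. Both genes were thus higher in later skin in each project, with first-project Fos far higher at E14.5 than at E12.5. For the whole list the first-project sums were 687 and 1433 CPM in later skin, against 509 and 556 CPM in earlier skin. Trib1 and Ier2 were among the 144. First-project Trib1 had 44.7 and 26.2 CPM in later skin, against 59.5 and 57.1 CPM in earlier skin, and first-project Ier2 had 41.5 and 48.3 CPM in later skin, against 61.0 and 52.3 CPM in earlier skin. Both were lower in later skin there and higher in later skin in the second project, with a difference of 2.45 for Trib1 (edgeR adjusted p = 0.0358) and 1.97 for Ier2 (edgeR adjusted p = 0.0443) on the log2 scale.

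Macrophage markers ran the other way in the first project, with a sum of 251 and 473 CPM in later skin, against 13.7 and 53.6 CPM in earlier skin. Ms4a7 had 1.71 and 2.91 CPM in later first-project skin, against 0 and 0 CPM in earlier first-project skin, where second-project Ms4a7 had 28.1 and 30.8 CPM in later skin, against 62.1 and 54.9 CPM in earlier skin (adjusted p for the difference 0.0217). Cd84, a receptor of the SLAM family, was the other gene of the 12 named lower with a called difference (-4.63 on the log2 scale, edgeR adjusted p = 0.0257). Adgre1 and Lyz2 did not pass that test, with an edgeR adjusted p of 0.0678 and 0.106.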

How the data were processed

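Strand use, and the role of each tool, are not given in the sources used here. The authors deposited raw read counts per gene, and per the submitters' processing notes the tools named were Trimmomatic 0.36, STAR 2.5.0a, featureCounts 1.6.0 and DESeq2 1.20.0, with genome GRCm38/mm10. Without stated strand use, reads of overlapping genes on opposite strands cannot be told apart. Of the 53465 genes in the table, 15242 passed edgeR's filterByExpr over the 4 second-project skin libraries, and 6 count columns of other tissue were not used. Later skin (E12.5, E14.5) was compared with earlier skin (E9.5, E10.5) by edgeR 4.0.16 quasi-likelihood tests (R 4.3.3) with TMM factors and 2 residual degrees of freedom. Adjusted p-values are Benjamini-Hochberg over all tested genes, with a threshold of 0.05. DESeq2 1.42.0 and limma-voom 3.58.1, other scalings and filters, a test against a log2 change of 1, embryonic day as a number and each library left out were the alternatives. The fit was also run on simulated counts, in which CPM did not move with total counts, and the outcome is not reported here. Named genes were the 12 largest changes in each direction among called genes with separate groups and 5 CPM or more, excluding predicted genes; where fewer passed, places were filled by unadjusted p. Besides these, the 10 genes of highest mean CPM and members of 49 gene lists are described. Members and lists were chosen with earlier results of these data known.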

Additional observations from a re-analysis of the deposited data

Results flagged for a closer look

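The change of later over earlier skin was called different between the second and the first project in 144 genes. The test was that of edgeR over the 8 skin libraries, with Benjamini-Hochberg adjustment over all genes tested. Of the 144, 8 are described here, taken from chosen gene lists and the named genes, with Igfbp3 added by name. Differences are given as second-project change minus first-project change on the log2 scale. Cxcl14, a chemokine of skin and other epithelia, differed by -7.09 (adjusted p = 0.00979). Second-project Cxcl14 had 5.32 and 5.83 CPM in later skin, against 9.3 and 12.2 CPM in earlier skin, while first-project Cxcl14 had 235 and 422 CPM in later skin, against 4.82 and 4.01 CPM in earlier skin. Lox, which crosslinks collagen and elastin, differed by -7.02 (adjusted p = 0.0338), and its first-project values were 221 and 755 CPM in later skin, against 3.21 and 4.71 CPM in earlier skin. Second-project Lox had 320.4 and 559 CPM in later skin, against 452 and 509.97 CPM in earlier skin. The adhesion receptor Vcam1 differed by -4.90 (adjusted p = 0.0265), with 193 and 277 CPM in later second-project skin, against 274 and 218 CPM in earlier second-project skin. For Lox and Vcam1 the second-project groups overlapped, and in the first project both later libraries were far above both earlier ones.

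The macrophage genes Ms4a7 and Cd84 differed by -9.12 (adjusted p = 0.0217) and -4.63 (adjusted p = 0.0257). Earlier first-project skin had no count of Ms4a7, so the size of its difference depends on the prior count of the fit. Igfbp3 differed by -2.09 (adjusted p = 0.0256), with first-project values of 276 and 251 CPM in later skin, against 36.3 and 31.96 CPM in earlier skin. Trib1 and Ier2 differed the other way, by 2.45 (adjusted p = 0.0358) and 1.97 (adjusted p = 0.0443). The number of genes with a called difference was 144, and between 1 and 1532 when single libraries were left out.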

How the results depend on the processing

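No paired analysis was possible because each skin library of a group is a different embryonic day, and the replicate numbers in the 2 groups only name those days. The count of 2 genes called, both higher, was the same with median-of-ratios factors, with total counts alone, with limma-voom, with a filter of 5 CPM in 2 libraries and with mitochondrially encoded genes left out, and Fosb and Fos were the genes called in each. DESeq2 called 28, of which 27 were higher and 1, Lyz2, lower. Without a filter on low counts, 59 were called, 48 higher and 11 lower. The test against a log2 change of 1 called 1, Fosb. Embryonic day as a number called 0, and so did a fit with the spread of all 8 skin libraries. Leaving out 1 library gave between 0 and 22 calls, all higher: 0 without E9.5 or without E10.5, 22 without E12.5 and 11 without E14.5. Each of these leaves 1 library in a group, which is assumed to vary like the other 2. With log2 total counts as a term, chosen after seeing the data, 782 were called, 322 higher and 460 lower. The difference between projects, 144 genes, was 1471 with DESeq2, 23 with limma-voom, 1805 without a filter, 247 with the filter of 5 CPM, 37 against a log2 change of 1, and between 1 and 1532 with 1 library left out. The cause of these differences was not tested. The 15 immediate early genes with groups apart were 15 to 18, the 8 of the NF-kB list were 8, and the 8 macrophage markers were between 7 and 18, under the settings tried. Leaving out a library can only keep or raise such numbers, and the share of all tested genes was not taken there. With 2 libraries a group, each of another day, and a coefficient of variation of 29.3%, a gene short of the threshold is not shown to be unchanged.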

Other observations

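A few genes of other lists had groups at least 1.5 times apart in second-project skin, and none was called. Over all tested genes the share with groups apart was 0.925% with later skin higher and 1.37% with later skin lower. Among 17 tested matricellular genes, the connective tissue growth factor genes Cyr61 and Ctgf did, which answer mechanical tension and serum through YAP and serum response factor. Cyr61 had 575 and 783 CPM in later skin, against 277 and 369.7 CPM in earlier skin (log2 change 1.11 ± 0.23). Ctgf had 179 and 263 CPM in later skin, against 109.7 and 105 CPM in earlier skin (1.07 ± 0.22). The other matricellular genes had 0 with groups apart, and the list's median was 0.07. Of 23 cell cycle inhibitors and p53 targets, Btg2 and the polo-like kinase Plk2 had groups apart, with Plk2 at 274 and 396 CPM in later skin, against 146 and 163 CPM in earlier skin. The p53 target Cdkn1a (p21) had 362 and 482 CPM in later skin, against 316 and 416 CPM in earlier skin, with overlapping groups, and the list's median was 0.03.

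Of 29 genes of FGF, PDGF and IGF signalling, 2 had groups apart with later skin higher, and the median log2 change was 0.19. Igfbp3, a binding protein for IGFs, had 205 and 245 CPM in later skin, against 129 and 137 CPM in earlier skin. Spry2, a feedback inhibitor of receptor tyrosine kinases, had 118 and 104 CPM in later skin, against 51.9 and 57.3 CPM in earlier skin (log2 change 1.06 ± 0.16). Of 16 clock genes, Per1, which is also induced acutely by CREB, was the 1 with groups apart, at 29.5 and 24.9 CPM in later skin, against 16.6 and 16.2 CPM in earlier skin, and 0 were apart with TMM-scaled CPM. Per2 had 4.43 and 2.91 CPM in later skin, against 3.63 and 3.49 CPM in earlier skin, with overlapping groups. Of 22 lysosomal, cathepsin and autophagy genes, Ctss, a cathepsin of antigen-presenting cells, was the 1 with groups apart and later skin lower, at 63.1 and 94.8 CPM in later skin, against 155 and 161 CPM in earlier skin.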
